A study of Mus musculus with 34 samples.

Results

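Mouse CD4 T cells labelled Tfh5_4e4 (6 libraries) were compared with cells labelled Tfh2_4e4 (6 libraries). They are 12 of the 34 RNA libraries of the series, and each library was put in its group by its label. The starting cells were naive CD4 T cells from C57BL/6 mice. They were stimulated with plate-bound antibodies to CD3 and to CD28 and kept in culture for 3.5 days, then flow sorted into Trizol, and their RNA went into 3-prime libraries. Tfh5_4e4 and Tfh2_4e4 share the number 4e4 and differ in the code that precedes it. The same code Tfh2 was also present with the numbers 1e4 (6 libraries), 2e4 (5) and 6e4 (6), and a code TfhA with 4e4 (5). The labels do not explain the codes, the number's unit or the gate used for sorting, so each group is called by its label. No genotype, added cytokine or animal age is given for any group. The series title names TGF-beta, c-Maf and the choice between follicular helper (TFH) and TH17 cells.

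TGF-beta binds a complex of a type I and a type II receptor kinase. The complex phosphorylates SMAD2 and SMAD3, which enter the nucleus with SMAD4 and switch on target genes. Several of those targets, such as Smad7, Skil and Pmepa1, restrain the pathway in turn, so their transcripts are widely used as a readout of its activity. In CD4 T cells the pathway takes part in the development of TH17, regulatory and follicular helper cells.

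The 12 libraries held 6181166 to 9934245 counts each (6181166 to 9543117 in Tfh5_4e4, 6548499 to 9934245 in Tfh2_4e4), within the range of all 34 (4481509 to 9934245). Levels are given as CPM, the counts a gene would have in a library whose scaled total is the same for all. T cell transcripts were present in every library. The 12 markers of CD4 T cells, among them Cd3e, Cd4 and Lck, summed to 2489.6 to 2720.0 CPM in Tfh5_4e4 and 2457 to 2841 CPM in Tfh2_4e4. The listed markers of other cells were near 0. The 2 CD8 T cell markers summed to 6.23 to 13.5 CPM in Tfh5_4e4 and 5.80 to 11.4 CPM in Tfh2_4e4, the 7 B cell markers to at most 2.81 CPM, the 6 NK cell markers to at most 1.54 CPM and the 10 myeloid and dendritic cell markers to at most 3.30 CPM in any library. Cd79a, Ncr1 and Csf1r are members of these lists, and 3 of 7 B cell, 4 of 6 NK cell and 2 of 10 myeloid markers had no count in the 12 libraries. Outside these lists, the MHC class II gene H2-Ab1 averaged 39.1 CPM in Tfh5_4e4 and 74.0 CPM in Tfh2_4e4. The immunoglobulin gene Ighm averaged 16.1 CPM in Tfh5_4e4 and 8.64 CPM in Tfh2_4e4. Which cells these transcripts came from was not tested. Tfh2_4e4 replicate 3 stood apart from its group in some genes. It held 76.0 CPM of S100a6 against 19.5 to 27.3 CPM in the other 5 Tfh2_4e4 libraries, and 4.22 CPM of Tbx21, the gene of the TH1 factor T-bet, against 0 to 0.967 CPM. Results that change without this library are given both ways for many genes and some lists. In these bulk samples fewer cells of a type and less RNA per cell cannot be told apart.

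Of 11357 genes tested, 353 (3.11%) differed between Tfh5_4e4 and Tfh2_4e4 at an edgeR adjusted p under 0.05, which is what called means below. Of these, 160 were higher (1.41%) and 193 lower (1.7%) in Tfh5_4e4, and 28 and 44 of them by more than 2-fold. The median log2 fold change of all genes tested was -0.0093, that of the genes called higher 0.63 and that of the genes called lower -0.67. In 255 genes (2.25%) the 6 Tfh5_4e4 libraries did not overlap the 6 Tfh2_4e4 libraries, 118 (1.04%) higher and 137 (1.21%) lower in Tfh5_4e4, and 184 of the 353 called genes were among them. Without Tfh2_4e4 replicate 3, 265 genes were called (100 higher and 165 lower), and 237 of the 353 were kept. The number of genes called higher also fell to 96 without Tfh2_4e4 replicate 5 and to 103 without Tfh5_4e4 replicate 3. In every gene described here as called, all 6 Tfh5_4e4 libraries lay on the same side of the Tfh2_4e4 mean. Where a gene is followed by 2 numbers in brackets, the first is the log2 fold change of Tfh5_4e4 over Tfh2_4e4 and the second the edgeR adjusted p.

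The list of genes that TGF-beta signalling induces, many of which feed back on it, held 19 genes, and 15 of them were tested. In Tfh5_4e4, 7 were called higher and 1 lower, beside 1.41% and 1.7% of all genes. Their median log2 fold change was 0.52, or 0.44 without Tfh2_4e4 replicate 3. Pmepa1 (chromosome 2, 173224458 to 173276731, build GRCm38.p6 as for all positions here) encodes a membrane protein that holds receptor-activated SMADs away from the receptor. It ranged from 437 to 525 CPM (median 495) in the Tfh5_4e4 libraries, against 248 to 302 CPM (median 263) in the Tfh2_4e4 libraries. The groups did not overlap (log2 fold change 0.83, SE 0.0856, edgeR adjusted p = 1.74e-08). Smad7 (chromosome 18, 75367365 to 75395935) encodes the inhibitory SMAD that targets the type I receptor. It stood at 58.6 to 73.1 CPM (median 65.0) in the Tfh5_4e4 libraries, against 26.9 to 44.5 CPM (median 35.7) in the Tfh2_4e4 libraries. Again every Tfh5_4e4 library was above every Tfh2_4e4 library (log2 fold change 0.88, SE 0.142, edgeR adjusted p = 6.76e-05). Skil, which encodes the SMAD co-repressor SnoN (chromosome 3, 31095058 to 31122923), held 99.7 to 143 CPM (median 120.0) in the Tfh5_4e4 libraries, against 69.3 to 101 CPM (median 79.8) in the Tfh2_4e4 libraries. Here the ranges overlapped, with 1 of the Tfh2_4e4 libraries above the lowest of Tfh5_4e4, and the gene was called (log2 fold change 0.52, SE 0.124, edgeR adjusted p = 0.0103). Pmepa1, Smad7 and Skil kept their calls in each of the 12 fits that left out 1 library.

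The other members called higher were Ski, a co-repressor like SnoN (0.34, 0.0339), Ldlrad4, a membrane inhibitor related to Pmepa1 (0.52, 0.0263), Klf10, a zinc finger factor first found as a TGF-beta-inducible early gene (0.98, 0.0209), and Nedd9, an adaptor protein (0.55, 0.0252). The groups did not overlap in Ski and Ldlrad4 and did in Klf10 and Nedd9. Klf10 averaged 17.2 ± 4.94 CPM in Tfh5_4e4 and 8.77 ± 4.10 CPM in Tfh2_4e4 (SD, n = 6 each). Each of these 4 calls was lost in some of the fits without 1 library. Ski was not called without Tfh5_4e4 replicate 1, 2, 3 or 4 or Tfh2_4e4 replicate 2, 4, 5 or 6 (edgeR adjusted p up to 0.124), and Ldlrad4 not without Tfh5_4e4 replicate 1, 2 or 6 or Tfh2_4e4 replicate 3, 4 or 5 (edgeR adjusted p up to 0.0952). Klf10 was not called without Tfh5_4e4 replicate 2 or 5 or Tfh2_4e4 replicate 1 or 3 (edgeR adjusted p up to 0.0737), nor Nedd9 without Tfh5_4e4 replicate 3 or 4 or Tfh2_4e4 replicate 3, 5 or 6 (edgeR adjusted p up to 0.0996). The list therefore had 4 members called higher without Tfh2_4e4 replicate 3, and also 4 without Tfh2_4e4 replicate 5 or Tfh5_4e4 replicate 2. Id1, an inhibitor of helix-loop-helix factors that BMP signals raise, was the 1 member called lower (-1.60, 0.0437) at 0.570 ± 0.239 CPM in Tfh5_4e4 and 1.83 ± 1.29 CPM in Tfh2_4e4. Its call was lost without Tfh5_4e4 replicate 1, 3, 4, 5 or 6 or Tfh2_4e4 replicate 1, 3 or 4 (edgeR adjusted p up to 0.184). Members tested that did not pass included Tgif1 (0.55, 0.103), Itgae, the CD103 integrin chain (0.78, 0.413), Tgfbi (-0.33, 0.746), Id3 (-0.37, 0.456), Smurf1 (-0.025, 0.97) and Smurf2 (0.13, 0.768). Smad6, Bambi, Ccn2 and Cdkn2b were below the filter on low counts.

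**Figure D1:**
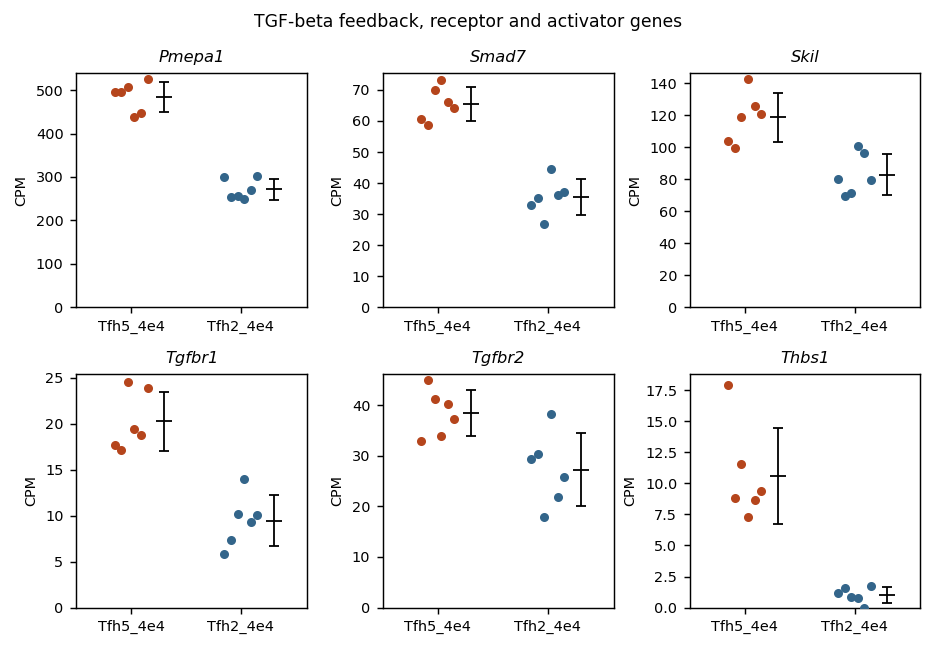
Level (CPM) of 6 genes of the TGF-beta pathway in each of the 6 Tfh5_4e4 libraries (left) and the 6 Tfh2_4e4 libraries (right); points are libraries, and the cross with bars is the mean with its SD. The groups do not overlap in Pmepa1, Smad7, Tgfbr1 and Thbs1, and they do in Skil and Tgfbr2.

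Among receptors and SMAD factors 2 of 15 tested members were called higher, the TGF-beta receptor genes Tgfbr1 and Tgfbr2, beside 1.41% of all genes, with a median log2 fold change of 0.094 over the list. The edgeR fit called 0 members lower, with 1 lower at an unadjusted p under 0.05 and 0 called by DESeq2 and 0 by limma-voom. Tgfbr1, the type I receptor kinase (chromosome 4, 47353222 to 47414926), ranged from 17.2 to 24.5 CPM (median 19.1) in the Tfh5_4e4 libraries, against 5.88 to 14.0 CPM (median 9.72) in the Tfh2_4e4 libraries. No Tfh2_4e4 library reached the lowest Tfh5_4e4 library (log2 fold change 1.09, SE 0.172, edgeR adjusted p = 5.04e-05), and the call held in all 12 fits without 1 library. The type II receptor gene Tgfbr2 (chromosome 9, 116087695 to 116175363) held 33.0 to 44.9 CPM (median 38.8) in the Tfh5_4e4 libraries, against 17.8 to 38.3 CPM (median 27.6) in the Tfh2_4e4 libraries. These ranges overlapped (log2 fold change 0.50, SE 0.142, edgeR adjusted p = 0.041). Tgfbr2 was not called without Tfh5_4e4 replicate 2, 3, 5 or 6 or Tfh2_4e4 replicate 1, 3, 5 or 6 (edgeR adjusted p up to 0.174), nor when the 12 libraries were fitted alone (edgeR adjusted p = 0.0814). The signal carriers Smad2 (0.034, 0.959), Smad3 (-0.076, 0.807) and Smad4 (0.094, 0.779) did not pass. Of the activin receptors, neither Acvr2b (1.06, 0.375) nor Acvr2a (0.51, 0.417) passed. Map3k7, which encodes the kinase TAK1 that carries SMAD-independent TGF-beta signals (chromosome 4, 31963492 to 32023470), was higher (log2 fold change 0.66, SE 0.127, edgeR adjusted p = 0.00076) in groups that did not overlap.

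Few ligand and activation genes were measured, 8 of 16. Thbs1 encodes thrombospondin 1, a matrix protein that can release active TGF-beta from its latent form (chromosome 2, 118111876 to 118127133). It had 7.29 to 18.0 CPM (median 9.09) in the Tfh5_4e4 libraries, against 0 to 1.76 CPM (median 1.02) in the Tfh2_4e4 libraries. It was the gene of this list with the greatest difference (log2 fold change 3.31, SE 0.394, edgeR adjusted p = 6.55e-07) and was called in all 12 fits without 1 library. Tgfb3, a ligand gene, was called lower (-0.88, 0.0248), and so was Lrrc32, which encodes GARP, the protein that holds latent TGF-beta on the cell surface (-0.78, 0.0434). Tgfb3 averaged 12.5 ± 2.52 CPM in Tfh5_4e4 and 23.1 ± 7.93 CPM in Tfh2_4e4, and Lrrc32 11.1 ± 2.55 CPM in Tfh5_4e4 and 18.9 ± 4.42 CPM in Tfh2_4e4. The groups overlapped in both genes. Tgfb3 was not called without Tfh5_4e4 replicate 1 or 6 or Tfh2_4e4 replicate 2 or 4 (edgeR adjusted p up to 0.0698), and Lrrc32 not without Tfh5_4e4 replicate 1, 2, 3, 4 or 6 or Tfh2_4e4 replicate 3, 4 or 5 (edgeR adjusted p up to 0.116). Tgfb1, the main ligand of T cells, did not pass (0.54, 0.437) at 6.27 ± 2.28 CPM in Tfh5_4e4 and 4.26 ± 2.02 CPM in Tfh2_4e4.

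Sox4, which encodes an HMG-box transcription factor known in T cells as a TGF-beta target (chromosome 13, 28948919 to 28953699), ranged from 107 to 152 CPM (median 125) in the Tfh5_4e4 libraries, against 31.8 to 85.1 CPM (median 55.7) in the Tfh2_4e4 libraries. The groups were apart (log2 fold change 1.15, SE 0.169, edgeR adjusted p = 2.05e-05). Promoter windows of Sox4 and the receptor genes are shown because these genes were called higher beside the SMAD targets. Each window runs from 250 bases before to 50 bases after an annotated start, on the gene's strand (RefSeq, GRCm38.p6), and capitals mark CAGAC, the core of the CAGA box that SMAD3 and SMAD4 bind, on either strand (GTCTG on the other). The windows lie at chr13:28953650-28953949, minus strand for Sox4, at chr9:116175314-116175613, minus strand for Tgfbr2 and at chr4:47385966-47386265, plus strand for the second of 2 starts of Tgfbr1.
Sox4: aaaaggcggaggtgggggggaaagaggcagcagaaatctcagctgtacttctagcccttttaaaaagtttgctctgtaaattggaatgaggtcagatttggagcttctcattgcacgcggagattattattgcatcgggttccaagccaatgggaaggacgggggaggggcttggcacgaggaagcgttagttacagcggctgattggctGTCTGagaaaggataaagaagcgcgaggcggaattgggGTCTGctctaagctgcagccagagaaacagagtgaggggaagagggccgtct
Tgfbr2: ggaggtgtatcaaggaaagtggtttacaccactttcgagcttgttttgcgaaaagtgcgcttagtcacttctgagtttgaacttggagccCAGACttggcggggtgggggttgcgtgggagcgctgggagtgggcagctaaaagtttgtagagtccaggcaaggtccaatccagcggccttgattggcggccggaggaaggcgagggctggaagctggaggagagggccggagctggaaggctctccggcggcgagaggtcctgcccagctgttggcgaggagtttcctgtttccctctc
Tgfbr1: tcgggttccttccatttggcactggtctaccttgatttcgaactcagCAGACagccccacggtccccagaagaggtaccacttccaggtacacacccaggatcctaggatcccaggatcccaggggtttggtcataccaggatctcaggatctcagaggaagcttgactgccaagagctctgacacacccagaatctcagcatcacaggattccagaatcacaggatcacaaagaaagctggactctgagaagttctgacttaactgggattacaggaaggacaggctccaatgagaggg
Sox4 had 2 matches and Tgfbr2 and the second Tgfbr1 window 1 each, while the first Tgfbr1 window, at chr4:47352972-47353271, plus strand, had 0. Such short motifs are common: 53.2% of all genes with a window in the table hold CAGAC. Of the SMAD feedback and target list 7 of 15 tested genes had a window and 6 of these held the motif, and of the receptor and SMAD list 6 of 11. Counted by window, 8 of 11 and 6 of 14 held it, beside 49.6% of all windows. Of the called members with a window, 1 of 2 and 2 of 2 held it. A match describes the letters in the window and not binding.

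Costimulatory receptor genes included several that were lower in Tfh5_4e4. Of 11 tested members, 5 were called lower, beside 1.7% of all genes, with a median log2 fold change of -0.69. The edgeR fit called 0 higher, also at an unadjusted p under 0.05 and by DESeq2 and limma-voom. Icos, the costimulatory receptor that follicular helper cells need (chromosome 1, 60960773 to 61000322), ranged from 35.6 to 49.8 CPM (median 40.5) in the Tfh5_4e4 libraries, against 57.6 to 116 CPM (median 78.9) in the Tfh2_4e4 libraries. Every Tfh5_4e4 library was below every Tfh2_4e4 library (log2 fold change -0.98, SE 0.152, edgeR adjusted p = 4.13e-05). Tnfrsf9, which encodes 4-1BB (chromosome 4, 150920155 to 150946104), had 71.0 to 111 CPM (median 107) in the Tfh5_4e4 libraries, against 121 to 255 CPM (median 235) in the Tfh2_4e4 libraries. The groups did not overlap (log2 fold change -1.13, SE 0.174, edgeR adjusted p = 4.12e-05).

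Tnfrsf4 and Tnfrsf18, which encode OX40 and GITR, are neighbours on chromosome 4, with Tnfrsf18 at 156026322 to 156028894 and Tnfrsf4 at 156013595 to 156016613. Tnfrsf4 stood at 98.6 to 143 CPM (median 131) in the Tfh5_4e4 libraries, against 183 to 304 CPM (median 214) in the Tfh2_4e4 libraries. Its highest value was that of Tfh2_4e4 replicate 3. Tnfrsf18 had 154 to 206 CPM (median 163) in the Tfh5_4e4 libraries, against 209.5 to 325 CPM (median 286) in the Tfh2_4e4 libraries. Neither gene overlapped between the groups, and both were called (-0.81, 1.46e-05 for Tnfrsf4, -0.69, 4.84e-05 for Tnfrsf18). Without replicate 3 the values were -0.72, edgeR adjusted p = 4.56e-05 for Tnfrsf4 and -0.88, edgeR adjusted p = 0.000174 for Icos, and all 4 receptors kept their calls in all 12 fits without 1 library. Tnfsf8, the CD30 ligand gene, was the fifth called member (-3.61, 0.0409) and rested on 1 library: 18.2 CPM in Tfh2_4e4 replicate 3 and at most 0.806 CPM in the other 5. Without it the value was -0.041, edgeR adjusted p = 0.995. It was also not called without any 1 of the 6 Tfh5_4e4 libraries (edgeR adjusted p up to 0.0946), by limma-voom (adjusted p = 0.849) or by DESeq2 (adjusted p = 0.0697). The list median was -0.26 without replicate 3, with 4 members called. Cd28, which encodes a receptor that the activating antibodies engage, did not pass (-0.0067, 0.986) at 471 ± 61.9 CPM in Tfh5_4e4 and 473 ± 60.8 CPM in Tfh2_4e4 (SD, n = 6 each). Cd27 (0.011, 0.98), Tnfrsf25 (-0.20, 0.576), Cd40lg (-0.41, 0.22) and Cd226 (-1.21, 0.535) did not pass either.

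**Figure D2:**
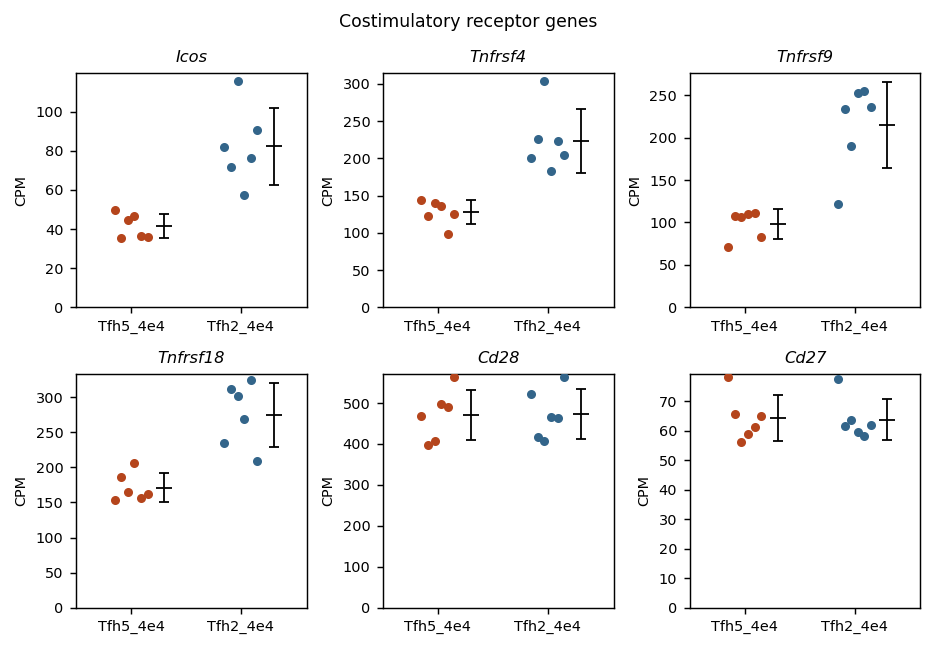
Level (CPM) of 6 costimulatory receptor genes in each Tfh5_4e4 library (left) and each Tfh2_4e4 library (right); points are libraries, and the cross with bars is the mean with its SD. Icos, Tnfrsf4, Tnfrsf9 and Tnfrsf18 are lower in all 6 Tfh5_4e4 libraries than in any Tfh2_4e4 library, while Cd28 and Cd27 overlap throughout.

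Of 10 co-inhibitory receptor genes tested, 1 was called higher, beside 1.41% of all genes. This was Lair1, a receptor for collagen (1.28, 0.0376), at 5.72 ± 0.723 CPM in Tfh5_4e4 and 2.30 ± 1.51 CPM in Tfh2_4e4. It was not called without Tfh5_4e4 replicate 1, 2, 3, 5 or 6 or Tfh2_4e4 replicate 1, 2, 3, 4 or 5 (edgeR adjusted p up to 0.101). Pdcd1, which encodes PD-1, did not pass (0.54, 0.0661), with 38.8 to 58.9 CPM (median 50.1) in the Tfh5_4e4 libraries, against 22.7 to 46.8 CPM (median 33.0) in the Tfh2_4e4 libraries. All 6 Tfh5_4e4 libraries were above the Tfh2_4e4 mean, but the ranges overlapped. Without Tfh2_4e4 replicate 3 Pdcd1 passed (0.64, edgeR adjusted p = 0.0355).

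The follicular helper list had 4 of 20 tested members called higher and 1 lower, beside 1.41% and 1.7% of all genes, with a median log2 fold change of 0.33. The higher members were Maf, Angptl2, Tox and Pou2af1. Maf, which encodes c-Maf (chromosome 8, 115703253 to 115706894), ranged from 774 to 927 CPM (median 839) in the Tfh5_4e4 libraries, against 477 to 775 CPM (median 604) in the Tfh2_4e4 libraries. The ranges overlapped (log2 fold change 0.42, SE 0.101, edgeR adjusted p = 0.00966), and without Tfh2_4e4 replicate 3 the call was lost (0.34, edgeR adjusted p = 0.0511). Angptl2, a secreted angiopoietin-like protein gene, averaged 48.5 ± 4.33 CPM in Tfh5_4e4 and 28.7 ± 6.03 CPM in Tfh2_4e4 (0.76, 0.000667). Tox, a nuclear factor gene (0.58, 0.0208), was not called without Tfh5_4e4 replicate 6 or Tfh2_4e4 replicate 5 (edgeR adjusted p up to 0.0839). Pou2af1, a co-activator gene (0.63, 0.0274), was not called without Tfh5_4e4 replicate 1 or 3 or Tfh2_4e4 replicate 2, 3, 4 or 5 (edgeR adjusted p up to 0.108). The count of members called higher was 2 without Tfh2_4e4 replicate 3 or replicate 5. Gpr183, the oxysterol receptor that follicular helper cells turn down, was lower (-0.86, 0.000293) at 23.9 ± 5.66 CPM in Tfh5_4e4 and 43.3 ± 7.40 CPM in Tfh2_4e4, with no overlap between the groups. Icos, which follicular helper cells need and which was lower (-0.98, 4.13e-05), is not counted in this list. Cxcr5 (0.60, 0.243), Il21 (-0.033, 0.944) and Slamf6 (1.09, 0.641) did not pass. Bcl6 had 38 counts summed over Tfh5_4e4 and 21 over Tfh2_4e4 and, like Foxp3 with 23 and 10, was below the filter.

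TH17 genes showed 1 call among 16 tested, beside 3.11% of all genes. This was Il23r, the IL-23 receptor chain, which was lower (-1.35, 0.00383) at 2.57 ± 0.718 CPM in Tfh5_4e4 and 6.64 ± 2.43 CPM in Tfh2_4e4. The cytokine genes Il17a (-0.13, 0.845) and Il17f (-0.038, 0.937) and the factor gene Rora (0.13, 0.79) did not pass. The count of TH17 genes called lower was 2 without Tfh5_4e4 replicate 2, Tfh2_4e4 replicate 1 or Tfh2_4e4 replicate 6, with DESeq2 size factors in edgeR, in the 12 libraries alone, in DESeq2 and in limma-voom, and 3 without the filter on low counts. Il17a spread widely within the groups, with 51.1 to 95.3 CPM (median 66.8) in the Tfh5_4e4 libraries, against 36.6 to 133 CPM (median 65.1) in the Tfh2_4e4 libraries. Among 15 TH1 genes tested, 2 were called lower and 0 higher, beside 1.7% and 1.41% of all genes. The factor gene Runx3 was 1 of the 2 (-0.37, 0.0197), but it was not called without Tfh5_4e4 replicate 6 (edgeR adjusted p = 0.0555). In that fit the TH1 list had 1 member called lower, and without the filter on low counts it had 3. The median of the TH1 list was -0.87 and, without Tfh2_4e4 replicate 3, 0.049. Tbx21 did not pass with that library (-1.17, 0.532) or without it (0.83, edgeR adjusted p = 0.776). Of 9 regulatory T cell genes 2 were called higher, beside 1.41% of all genes. Nt5e, which encodes the ecto-nucleotidase CD73, averaged 167 ± 18.0 CPM in Tfh5_4e4 and 108 ± 15 CPM in Tfh2_4e4 (0.64, 7.6e-05). Nrp1, a semaphorin receptor gene (0.58, 0.041), was not called without Tfh5_4e4 replicate 1, 2, 5 or 6 or Tfh2_4e4 replicate 1, 2, 5 or 6 (edgeR adjusted p up to 0.146). Il4ra, the IL-4 receptor chain (-0.36, 0.0438), was the 1 member called lower of 4 TH2 genes, beside 1.7% of all genes. It was not called without Tfh5_4e4 replicate 1, 2, 3, 5 or 6 or Tfh2_4e4 replicate 2, 3 or 5 (edgeR adjusted p up to 0.132).

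Id2, an inhibitor of helix-loop-helix factors that opposes the follicular helper programme (chromosome 12, 25093799 to 25096092), ranged from 333 to 437 CPM (median 408) in the Tfh5_4e4 libraries, against 611 to 720.4 CPM (median 692) in the Tfh2_4e4 libraries. The groups were well apart (log2 fold change -0.77, SE 0.0854, edgeR adjusted p = 9.78e-08), and after Pmepa1 Id2 had the smallest p of all genes tested. Its Tfh5_4e4 mean was below the mean of each of the 4 Tfh2 groups. Runx1, which encodes a factor related to Runx3 (0.41, 0.0254), was higher in groups that did not overlap and was not called without Tfh5_4e4 replicate 3, 5 or 6 or Tfh2_4e4 replicate 1, 2 or 3 (edgeR adjusted p up to 0.0764). Bcl11b, a T cell identity factor gene (0.45, 0.00026), was also higher, at 500.4 ± 40.3 CPM in Tfh5_4e4 and 366 ± 19.4 CPM in Tfh2_4e4.

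Cells that sense low oxygen stabilize the factor HIF-1, which raises glucose uptake, glycolysis and a set of other target genes. Members of both groups were lower in Tfh5_4e4. Of 23 glucose uptake and glycolysis genes tested, 7 were called lower, and of 27 other hypoxia-induced genes also 7, beside 1.7% of all genes. Their median log2 fold changes were -0.31 and -0.32. The edgeR fit called 0 members of either list higher, also at an unadjusted p under 0.05 and by DESeq2 and limma-voom. Without Tfh2_4e4 replicate 3 the counts called lower were 6 and 9.

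Slc2a3, which encodes the glucose transporter GLUT3 (chromosome 6, 122727809 to 122802363), ranged from 113 to 162 CPM (median 152) in the Tfh5_4e4 libraries, against 198 to 333 CPM (median 279) in the Tfh2_4e4 libraries. The groups did not overlap (log2 fold change -0.88, SE 0.134, edgeR adjusted p = 3.34e-05). Slc2a1, the GLUT1 gene, was barely detected (1.39 ± 1.10 CPM in Tfh5_4e4 and 0.741 ± 0.514 CPM in Tfh2_4e4) and did not pass (0.88, 0.607). The hexokinase genes Hk1 (-0.38, 0.0332) and Hk2 (-0.36, 0.0199), which trap glucose in the cell, were called lower. The phosphofructokinase gene Pfkl (-0.37, 0.023) and the pyruvate dehydrogenase kinase gene Pdk1 (-0.44, 0.0161) were called lower too. So were the lactate transporter genes Slc16a3 (-0.54, 0.0064) and Slc16a1 (-0.41, 0.0425). Slc16a3, the lactate exporter, had 154 to 225 CPM (median 189) in the Tfh5_4e4 libraries, against 219 to 301 CPM (median 277) in the Tfh2_4e4 libraries. Its ranges overlapped through Tfh2_4e4 replicate 4. Hk1 was not called without Tfh5_4e4 replicate 1, 2, 5 or 6 or Tfh2_4e4 replicate 2 or 5 (edgeR adjusted p up to 0.0979), Pfkl not without Tfh5_4e4 replicate 2 or 3 (edgeR adjusted p up to 0.0667) and Slc16a1 not without Tfh5_4e4 replicate 1, 3, 4 or 6 or Tfh2_4e4 replicate 3, 4 or 5 (edgeR adjusted p up to 0.104). Ldha (-0.27, 0.245), Pkm (-0.29, 0.0805), Aldoa (-0.17, 0.414) and Tpi1 (-0.082, 0.833) did not pass. Gapdh (-0.084, 0.938), Pgk1 (-0.60, 0.545) and Eno1 (0.18, 0.906) have near-identical copies elsewhere in the genome, so their counts are uncertain.

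Hilpda, which encodes a lipid droplet protein induced by hypoxia (chromosome 6, 29272488 to 29275449), stood at 95.9 to 155 CPM (median 132) in the Tfh5_4e4 libraries, against 195 to 235 CPM (median 218) in the Tfh2_4e4 libraries. The groups were apart (log2 fold change -0.77, SE 0.116, edgeR adjusted p = 3.15e-05). Ero1a, an oxidase gene of disulfide bond formation (chromosome 14, 45283087 to 45318572), had 63.0 to 81.8 CPM (median 73.3) in the Tfh5_4e4 libraries, against 94.3 to 140.0 CPM (median 115) in the Tfh2_4e4 libraries. It was called (log2 fold change -0.67, SE 0.127, edgeR adjusted p = 0.000667) without overlap. Ndrg1, a stress-response gene (-0.68, 0.00277), Vldlr, a lipoprotein receptor gene (-0.97, 0.000257), and Adm, the adrenomedullin gene (-1.34, 0.0108), did not overlap between the groups either. Adm averaged 5.60 ± 1.56 CPM in Tfh5_4e4 and 14.2 ± 5.32 CPM in Tfh2_4e4 (SD, n = 6 each). Gbe1, the glycogen branching enzyme gene (-0.71, 0.0151), was not called without Tfh2_4e4 replicate 4 (edgeR adjusted p = 0.0508), and Fam162a (-0.33, 0.0156), a hypoxia-induced gene of a mitochondrial protein, not without Tfh5_4e4 replicate 5 (edgeR adjusted p = 0.0526). Vegfa (-0.43, 0.143), Bnip3 (-0.37, 0.0787), Egln3 (-0.29, 0.0541) and Ddit4 (-0.25, 0.157) did not pass. Of the 6 HIF and oxygen sensor genes tested, 1 was called lower, beside 1.7% of all genes. This was Vhl, which marks HIF for destruction (-0.44, 0.0363). It was not called without Tfh5_4e4 replicate 1, 2, 3, 5 or 6 or Tfh2_4e4 replicate 2 or 3 (edgeR adjusted p up to 0.112). Hif1a itself did not pass (-0.15, 0.638). Gys1, the glycogen synthase gene (-0.83, 0.000423), and the metallothionein genes Mt1 (-1.0, 2.57e-07) and Mt2 (-0.85, 0.000252), neighbours on chromosome 8, were also lower. Mt1 averaged 623 ± 66.2 CPM in Tfh5_4e4 and 1247 ± 159 CPM in Tfh2_4e4.

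**Figure D3:**
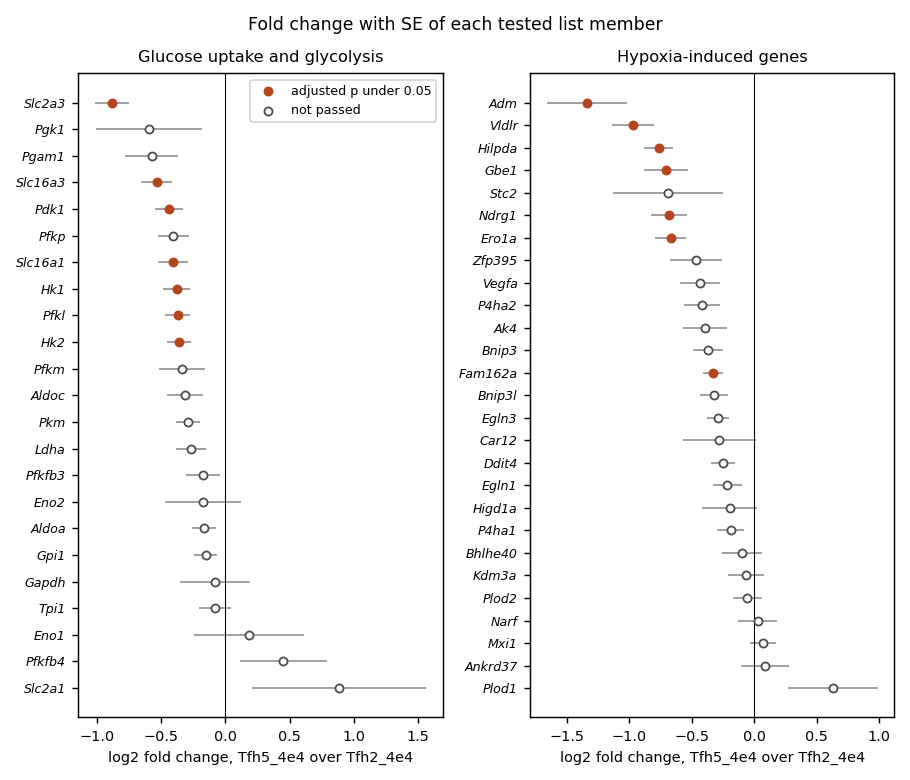
Log2 fold change, Tfh5_4e4 over Tfh2_4e4, of each tested member of the glucose uptake and glycolysis list (left) and the hypoxia-induced list (right); bars are the SE and filled points passed an edgeR adjusted p under 0.05. Filled points lie left of 0 in both panels, 7 in each.

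The promoter windows of 3 called hypoxia-induced genes are shown with the core of the hypoxia response element in capitals (ACGTG or GCGTG, or CACGT or CACGC where it lies on the other strand). They lie at chr6:29272376-29272675, plus strand for the second of 2 Hilpda starts, at chr14:45318523-45318822, minus strand for Ero1a and at chr16:36071512-36071811, minus strand for Fam162a, again 250 bases before to 50 after the start (RefSeq, GRCm38.p6).
Hilpda: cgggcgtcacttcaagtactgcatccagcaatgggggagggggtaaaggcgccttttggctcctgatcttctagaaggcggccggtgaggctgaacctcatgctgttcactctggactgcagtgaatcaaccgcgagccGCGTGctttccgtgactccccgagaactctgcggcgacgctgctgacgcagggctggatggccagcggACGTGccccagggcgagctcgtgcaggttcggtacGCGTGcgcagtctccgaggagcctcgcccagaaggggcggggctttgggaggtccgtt
Ero1a: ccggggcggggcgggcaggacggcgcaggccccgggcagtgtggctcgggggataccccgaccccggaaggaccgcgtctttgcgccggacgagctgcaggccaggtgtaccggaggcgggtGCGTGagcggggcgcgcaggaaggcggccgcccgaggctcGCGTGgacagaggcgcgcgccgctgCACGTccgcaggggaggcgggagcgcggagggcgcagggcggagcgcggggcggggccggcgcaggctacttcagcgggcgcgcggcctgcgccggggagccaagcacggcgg
Fam162a: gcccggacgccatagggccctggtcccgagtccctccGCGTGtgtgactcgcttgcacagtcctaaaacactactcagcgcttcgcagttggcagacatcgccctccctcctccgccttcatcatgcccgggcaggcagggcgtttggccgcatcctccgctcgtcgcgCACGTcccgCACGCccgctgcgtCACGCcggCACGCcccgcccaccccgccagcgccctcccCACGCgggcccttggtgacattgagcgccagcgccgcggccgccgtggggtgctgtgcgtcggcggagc
Hilpda and Ero1a had 3 matches each and Fam162a 6. A match was present in 46.7% of all genes in the table, in 19 of the 22 glycolysis genes with a window and in 19 of the 22 hypoxia-induced genes with one. Of the called members with a window, 6 of 6 and 4 of 6 held one, and the windows of Vldlr and Gbe1 held none of these letters.

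Of 27 DNA replication and nucleotide synthesis genes tested, 7 were called lower and 1 higher in Tfh5_4e4, beside 1.7% and 1.41% of all genes, with a median log2 fold change of -0.42. Without Tfh2_4e4 replicate 3 the counts were 6 and 0 and the median -0.29. Lig1, which encodes DNA ligase 1 (chromosome 7, 13277175 to 13311426), ranged from 71.8 to 96.6 CPM (median 90.0) in the Tfh5_4e4 libraries, against 96.4 to 175 CPM (median 151) in the Tfh2_4e4 libraries. The ranges overlapped (log2 fold change -0.72, SE 0.127, edgeR adjusted p = 0.000252). Mcm3, a subunit of the replicative helicase (-0.48, 0.00284), Rrm1, the large subunit of ribonucleotide reductase (-0.54, 0.00302), and Cdc6, which loads the helicase (-0.86, 0.00383), did not overlap between the groups. Rrm1 averaged 61.9 ± 6.09 CPM in Tfh5_4e4 and 90.3 ± 10.7 CPM in Tfh2_4e4. Tk1 (-0.92, 0.0116), a thymidine kinase gene, and Pold1 (-0.66, 0.0064), the catalytic subunit of polymerase delta, were called in all 12 fits without 1 library. Cdc45 (-0.62, 0.0418) was not called without Tfh5_4e4 replicate 1, 2, 3, 4 or 6 or Tfh2_4e4 replicate 1, 2, 3 or 4 (edgeR adjusted p up to 0.0984). Another helicase subunit gene, Mcm6, was higher (0.40, 0.0337), but not called without Tfh5_4e4 replicate 2, 3 or 4 or Tfh2_4e4 replicate 1, 3, 5 or 6 (edgeR adjusted p up to 0.116). Pcna (-0.13, 0.698) and Rrm2 (-0.14, 0.835) did not pass. Of 24 mitosis genes 2 were called lower, beside 1.7% of all genes: Top2a, the topoisomerase gene (-0.41, 0.00496), and Birc5, the survivin gene (-0.52, 0.0365). The list median was -0.27. DESeq2 called 4 mitosis genes lower, and edgeR 6 with replicate numbers 1 to 3 and 4 to 6 as a factor and 3 without the filter on low counts. Top2a averaged 376 ± 24.5 CPM in Tfh5_4e4 and 498 ± 80.2 CPM in Tfh2_4e4 and was called in all 12 fits without 1 library, while Birc5 was not called without Tfh5_4e4 replicate 1, 2, 4, 5 or 6 or Tfh2_4e4 replicate 1, 2, 3 or 6 (edgeR adjusted p up to 0.119). Mki67 (-0.44, 0.0577) and Cdk1 (-0.16, 0.742) did not pass.

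The 4 Tfh2 groups give a scale on which the Tfh5_4e4 levels can be placed. Tfh2_6e4 against Tfh2_1e4 shares no library with the comparison above. In it 4888 genes (43%) were called, 2537 higher (22.3%) and 2351 lower (20.7%) in Tfh2_6e4. Of the 160 genes higher in Tfh5_4e4, 118 (73.8%) were lower in Tfh2_6e4, which is 5.02% of the genes lower there, and 4 (2.5%) were higher, which is 0.158% of the genes higher there. Those 4 were Prkcb, Armc9, Irf2bpl and Pyurf. Of the 193 genes lower in Tfh5_4e4, 148 (76.7%) were higher in Tfh2_6e4, which is 5.83% of the genes higher there, and 26 (13.5%) were lower, which is 1.11% of the genes lower there. Most genes called in both thus differed between Tfh5_4e4 and Tfh2_4e4 in the direction in which a Tfh2 group of lower number differed from one of higher number.

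**Figure D4:**
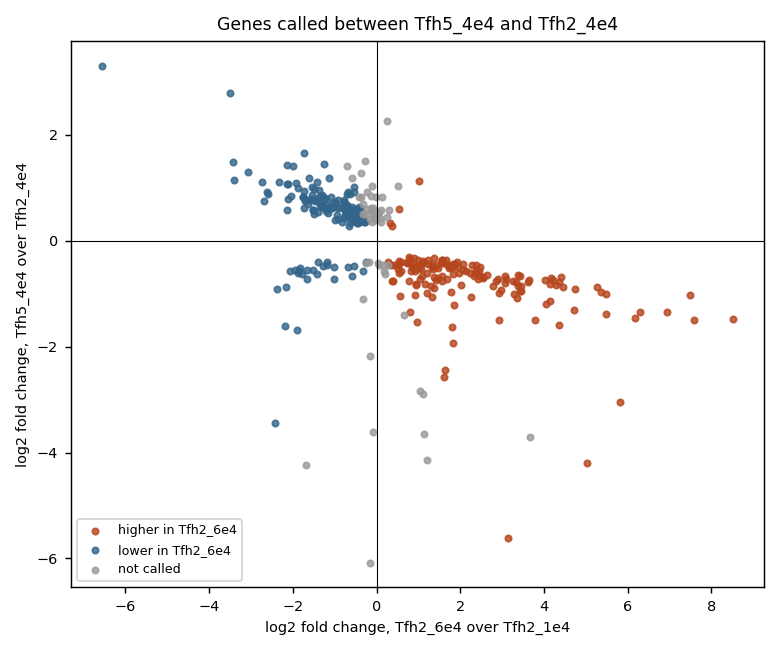
Log2 fold change of the 353 genes called between Tfh5_4e4 and Tfh2_4e4 (y axis, Tfh5_4e4 over Tfh2_4e4) against their log2 fold change between Tfh2_6e4 and Tfh2_1e4 (x axis, Tfh2_6e4 over Tfh2_1e4); each point is a gene, coloured by its call on the x axis. Of the genes above 0 on the y axis 118 are called lower in Tfh2_6e4, and of those below 0, 148 are called higher and 26 lower.

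Tfh5_4e4 did not sit at one place on this scale. The comparisons of Tfh5_4e4 with the other Tfh2 groups use the same Tfh5_4e4 libraries, so their values are set side by side only. Mean Pmepa1 was 484 CPM in Tfh5_4e4, beside 648, 409.8, 272 and 193 CPM in Tfh2_1e4, 2e4, 4e4 and 6e4. It was lower than in Tfh2_1e4 (-0.42, edgeR adjusted p = 0.000132) and did not pass against Tfh2_2e4 (0.24, edgeR adjusted p = 0.0731). Mean Sox4 was 129 CPM in Tfh5_4e4, beside 236, 124, 58.2 and 22.1 CPM in Tfh2_1e4, 2e4, 4e4 and 6e4. Against Tfh2_2e4 it did not pass (0.058, edgeR adjusted p = 0.89). Tgfbr1 averaged 20.3 CPM in Tfh5_4e4, beside 33.6, 17.7, 9.47 and 8.84 CPM in Tfh2_1e4, 2e4, 4e4 and 6e4, also not past the threshold against Tfh2_2e4 (0.19, edgeR adjusted p = 0.567).

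Smad7 and Icos were nearest to Tfh2_1e4. Mean Smad7 was 65.4 CPM in Tfh5_4e4, beside 55.3, 39.4, 35.5 and 35.5 CPM in Tfh2_1e4, 2e4, 4e4 and 6e4. It passed against Tfh2_2e4 (0.73, edgeR adjusted p = 0.000528) but not against Tfh2_1e4 (0.24, edgeR adjusted p = 0.202). Mean Icos was 41.6 CPM in Tfh5_4e4, beside 39.8, 59.4, 82.2 and 92.5 CPM in Tfh2_1e4, 2e4, 4e4 and 6e4, and it did not pass against Tfh2_1e4 (0.063, edgeR adjusted p = 0.807). Slc2a3 lay between Tfh2_2e4 and Tfh2_4e4, at 146 CPM in Tfh5_4e4, beside 10.8, 62.8, 270.1 and 416 CPM in Tfh2_1e4, 2e4, 4e4 and 6e4, and passed against both neighbours (1.23, edgeR adjusted p = 4.27e-08 against Tfh2_2e4). The means of 18 of the 23 glycolysis genes and 21 of the 27 hypoxia-induced genes also lay between those of Tfh2_2e4 and Tfh2_4e4, whether called or not. The share of all genes with a mean between these was not counted. Against Tfh2_2e4, 6 of the 23 and 12 of the 27 were called higher in Tfh5_4e4, beside 5.79% of all genes. Against Tfh2_6e4, 15 of the 23 and 17 of the 27 were called lower, beside 5.51% of all genes (5.09% were higher).

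Replication and mitosis genes stood elsewhere. They were lower at the higher Tfh2 number, 26 of 27 replication genes and 23 of 24 mitosis genes being called lower in Tfh2_6e4 than in Tfh2_1e4. Lig1 averaged 86.5 CPM in Tfh5_4e4, beside 289.6, 237, 143 and 91.9 CPM in Tfh2_1e4, 2e4, 4e4 and 6e4. Top2a averaged 376 CPM in Tfh5_4e4, beside 929, 719, 498 and 411 CPM in Tfh2_1e4, 2e4, 4e4 and 6e4. Neither passed against Tfh2_6e4 (-0.089, edgeR adjusted p = 0.76 for Lig1; -0.13, edgeR adjusted p = 0.442 for Top2a). Against Tfh2_2e4, 22 replication and 21 mitosis genes were called lower in Tfh5_4e4, beside 5.19% of all genes. Lig1, Mcm3, Rrm1, Cdc6, Top2a and Birc5 were among the 26 genes lower both in Tfh5_4e4 than in Tfh2_4e4 and in Tfh2_6e4 than in Tfh2_1e4. In 77 of the 160 genes called higher the Tfh5_4e4 mean was above the means of all 4 Tfh2 groups, and in 47 of the 193 called lower it was below all 4. These genes were picked by their difference from Tfh2_4e4, which favours such means, and the share over all genes was not counted. Smad7, Skil, Tgfbr2 and Maf were among the 77, and Id2, Il23r, Bcl2 and Cdc6 among the 47. Some margins were small, as in Skil (118.7 CPM in Tfh5_4e4, 117.7 in Tfh2_1e4) and Tgfbr2 (38.4 and 35.1 CPM).

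**Figure D5:**
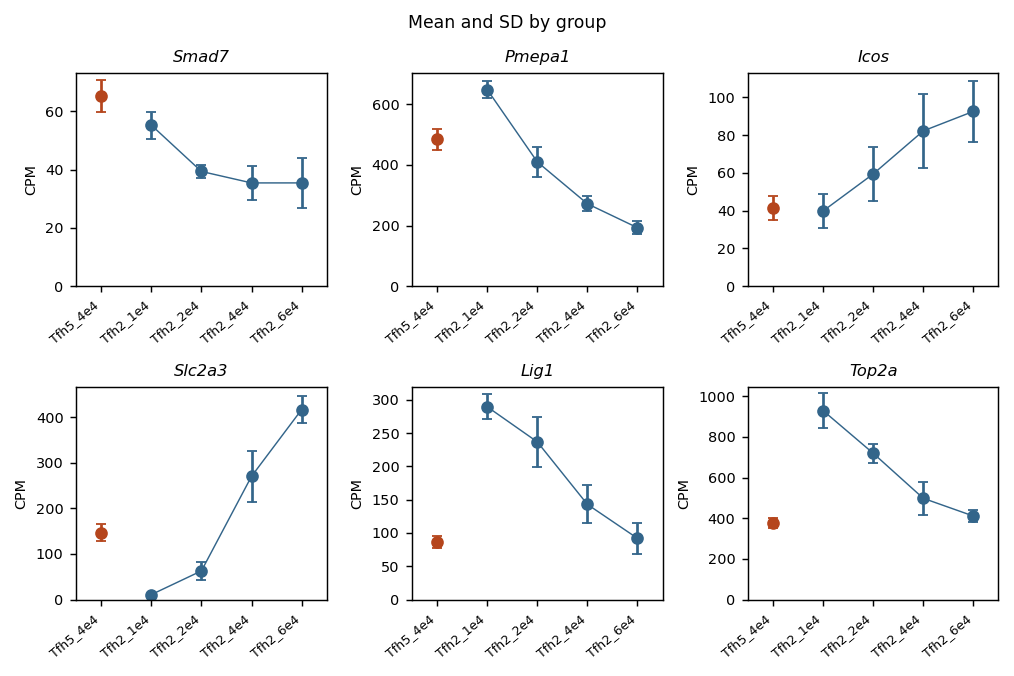
Mean level (CPM) with its SD of 6 genes in Tfh5_4e4 (leftmost point) and in Tfh2 with the numbers 1e4, 2e4, 4e4 and 6e4 (joined points, 6, 5, 6 and 6 libraries). Tfh5_4e4 lies above all Tfh2 means in Smad7, near Tfh2_1e4 in Icos, between Tfh2_2e4 and Tfh2_4e4 in Slc2a3 and near Tfh2_6e4 in Lig1 and Top2a.

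The 12 largest rises among genes above a floor of 3 in mean log2 CPM included Tgfbr1, Sox4 and Rgs16 and spanned log2 fold changes of 1.01 to 1.31. Lhx6, a LIM homeobox factor gene (1.31, 0.00348), averaged 15.7 ± 6.41 CPM in Tfh5_4e4 and 6.32 ± 2.39 CPM in Tfh2_4e4 (SD, n = 6 each). Pdlim5, which encodes an actin-bound scaffold protein (chromosome 3, 142239585 to 142395719), had 95.7 to 136 CPM (median 122) in the Tfh5_4e4 libraries, against 47.2 to 66.2 CPM (median 52.2) in the Tfh2_4e4 libraries. Its groups were apart (log2 fold change 1.11, SE 0.147, edgeR adjusted p = 3.8e-06). Cmklr1, a chemerin receptor gene (1.18, 0.000339), held 30.5 CPM in Tfh5_4e4 replicate 3 and 14.3 to 17.4 CPM in the other 5 Tfh5_4e4 libraries. Fnbp1l, which links membrane curvature to actin assembly (1.18, 0.00779), Pcbp3, an RNA-binding protein gene (1.06, 5.04e-05), Dnm3, a dynamin gene (1.03, 0.00459), Atp1b1, a sodium pump subunit gene (1.07, 0.012), Chpf2, an enzyme gene of chondroitin synthesis (1.02, 0.000667), and Kctd14 (1.01, 0.000252) completed the group. All were called in each of the 12 fits without 1 library. Rgs16 (1.11, 0.000632) and Rgs10 (0.39, 0.00277), which switch off G protein signals of chemokine receptors, were both higher, 2 of 7 such genes tested, beside 1.41% of all genes.

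The 12 largest falls were led by Podnl1 and included Adm and Tnfrsf9. Podnl1, a small leucine-rich proteoglycan gene (chromosome 8, 84125928 to 84142991), had 3.18 to 7.08 CPM (median 6.76) in the Tfh5_4e4 libraries, against 12 to 24.3 CPM (median 19.7) in the Tfh2_4e4 libraries. The groups did not overlap (log2 fold change -1.63, SE 0.223, edgeR adjusted p = 6.32e-06). Slamf7, a SLAM family receptor gene (-1.46, 0.000518), averaged 9.46 ± 3.49 CPM in Tfh5_4e4 and 25.9 ± 6.42 CPM in Tfh2_4e4. Selenbp1 (-1.47, 5.04e-05), Fam183b (-1.50, 0.000252), the phosphatase gene Ptpn14 (-1.35, 0.0106), the chromatin factor gene Dpf1 (-1.32, 0.000932), the synaptonemal complex gene Syce2 (-1.06, 2.25e-06) and H2-Q7, an MHC class Ib gene with close paralogs (-1.20, 0.00838), kept their calls in all 12 fits without 1 library. Nrn1, the neuritin gene (-1.49, 0.0208), had 90.1 CPM in Tfh2_4e4 replicate 3 and 17.3 to 31.6 CPM in the other 5. Without that library it was not called (-0.95, edgeR adjusted p = 0.171), nor without Tfh5_4e4 replicate 2 (edgeR adjusted p = 0.054).

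Among cytokine receptor and STAT, SOCS and Pim genes 4 of 22 were called lower, beside 1.7% of all genes: Il7r, the IL-7 receptor chain (-0.70, 0.000706), Il10ra (-1.59, 0.0314), Ifngr1 (-0.37, 0.0416) and Il4ra. Il7r had 134 to 194 CPM (median 163) in the Tfh5_4e4 libraries, against 220.1 to 333 CPM (median 261) in the Tfh2_4e4 libraries. Its groups did not overlap and its call held in all 12 fits without 1 library. Il10ra was not called without Tfh5_4e4 replicate 1, 4, 5 or 6 or Tfh2_4e4 replicate 2 or 6 (edgeR adjusted p up to 0.0696), and Ifngr1 not without Tfh5_4e4 replicate 1, 2, 3 or 4 or Tfh2_4e4 replicate 5 (edgeR adjusted p up to 0.125). Early response genes divided, with Egr1 (0.87, 1.78e-05) and the phosphatase gene Dusp2 (0.61, 0.0197) higher and Ier3 lower (-0.85, 1.32e-05) among 18 tested, beside 1.41% and 1.7% of all genes. Egr1, an immediate early factor gene of antigen receptor signals, averaged 60.2 ± 4.04 CPM in Tfh5_4e4 and 33.0 ± 3.88 CPM in Tfh2_4e4. Dusp2 was not called without Tfh5_4e4 replicate 2 or 3 or Tfh2_4e4 replicate 1 or 5 (edgeR adjusted p up to 0.0759), and 2 early response genes were called lower without Tfh2_4e4 replicate 1.

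Of the survival and stress lists, Bcl2, the anti-apoptotic gene, was lower (-0.82, 0.00302), with 11.1 to 23.4 CPM (median 17.0) in the Tfh5_4e4 libraries, against 19.0 to 48.5 CPM (median 28.9) in the Tfh2_4e4 libraries. Pmaip1, which encodes the pro-apoptotic protein NOXA (0.58, 0.039), was higher but not called without Tfh5_4e4 replicate 3, 5 or 6 or Tfh2_4e4 replicate 2, 3, 5 or 6 (edgeR adjusted p up to 0.126). The p53 target genes gave 1 call each way among 12 tested, beside 1.41% higher and 1.7% lower of all genes. Cdkn1a, the cell cycle inhibitor p21, was lower (-0.57, 0.00287), and Trp53inp1 higher (0.50, 0.0385), the second not without Tfh5_4e4 replicate 4, 5 or 6 or Tfh2_4e4 replicate 1, 2 or 3 (edgeR adjusted p up to 0.112). The MHC class I list had 3 of 15 called lower, beside 1.7% of all genes: H2-Q7, the peptide transporter gene Tap1 (-0.58, 0.00555) and H2-Q10 (-1.03, 0.0248), like H2-Q7 a gene with close paralogs and not called without Tfh5_4e4 replicate 2, 3 or 4 or Tfh2_4e4 replicate 3 or 5 (edgeR adjusted p up to 0.0669). Anxa2 (-0.51, 0.0064) and Lgals3 (-0.66, 0.0187), calcium-dependent membrane-binding and sugar-binding protein genes, were the 2 lower of 12 S100, annexin and galectin genes, beside 1.7% of all genes. Lgals3 was not called without Tfh5_4e4 replicate 1 (edgeR adjusted p = 0.0589). Foxp1, a quiescence factor gene, was higher (0.38, 0.0064). Its list of 16 quiescence and naive-state genes tested had 1 called higher and 1 lower, beside 1.41% and 1.7% of all genes.

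In 3 metabolic and stress lists the edgeR fit over all 34 libraries called no gene. Cholesterol and fatty acid synthesis (24 tested) had 3 genes higher and 0 lower at an unadjusted p under 0.05, with 1 higher and 0 lower called by DESeq2 and 0 and 0 by limma-voom. In edgeR 1 was higher without Tfh5_4e4 replicate 4 and with the number ranges as a factor. Interferon-stimulated genes (14 tested) had 0 and 2, with 0 and 0 by DESeq2 and 0 and 0 by limma-voom. Here edgeR called 2 lower without the filter on low counts, 2 without Tfh2_4e4 replicate 4 and 1 without Tfh2_4e4 replicate 6. ER chaperone and unfolded protein response genes (17 tested) had 1 and 4, with 0 and 1 by DESeq2 and 0 and 0 by limma-voom. Of these edgeR called 2 lower with the number ranges as a factor and 1 without Tfh2_4e4 replicate 4. The homing receptor list had 1 gene called lower of 19 (Gpr183), beside 1.7% of all genes. The ATF4 response list had 1 of 21 (Vldlr), or 2 without Tfh5_4e4 replicate 6.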

How the data were processed

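The authors deposited 1 table of raw counts per gene identifier for each library, and the values were whole counts. Tools listed in the submitters' processing notes, with no role given, are STAR 2.7.2b and featureCounts 1.6.4, and the build listed is mm10. The strand setting and the handling of reads that match several places are not given in the sources used here, so counts of overlapping genes and close paralogs are uncertain. The 3-prime libraries (50 ng of total RNA each) count transcripts without regard to length. The GRCm38.p6 annotation gave a symbol and position for 25275 of 27179 identifiers. Identifiers 100861531 and 19791, without a symbol there, held 48.3% of all counts.

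The edgeR model (4.0.16, under R 4.3.3) held the 34 libraries and 6 groups after TMM scaling and filterByExpr by group. Contrasts were tested by quasi-likelihood, two-sided, with Benjamini-Hochberg adjustment over 11357 genes and a threshold of 0.05. limma 3.58.1 (voom), DESeq2 1.42.0, other scalings, filters and designs, and fits without 1 library were alternatives. Whether replicates are separate animals or cultures is not in the labels. The p-values set each difference against the spread within groups, estimated over all 34 libraries, and that spread may be only technical. All titles carry the same sequencing label, and no batch is given. Within Tfh5_4e4 and within Tfh2_4e4 no 2 libraries agreed within sampling noise. That check did not leave out identifiers 100861531 and 19791, whose shares varied over the 34 libraries (22.7 to 38.2% and 13.2 to 21.2%). It therefore cannot tell whether libraries are repeats of 1 RNA sample. The fit was also run on simulated counts without replicate or batch structure, which cannot show how it behaves if these libraries share such structure. Named genes are the 5 genes Pmepa1, Smad7, Tgfbr1, Icos and Sox4, the 12 largest rises and falls (above a floor of 3 in mean log2 CPM, not predicted genes, every Tfh5_4e4 library on the same side of the Tfh2_4e4 mean), up to 4 called members per list above a floor of 1 in mean log2 CPM, and Maf, Il17a, Il17f, Cxcr5, Bcl6, Foxp3 and Il21. Other genes were named after their values were seen. The comparison, its genes and the lists were chosen with earlier results of these data known. Some genes are not reported here. Lists were not tested as sets.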

Additional observations from a re-analysis of the deposited data

Results flagged for a closer look

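Of 228 groups of 6 libraries, over the named genes, 21 held a library whose gap to the nearest of the others, as a share of the whole range, was above Dixon's critical value for 6 values. Chance flags about 1 in 20 groups. Tfh2_4e4 replicate 3 had 7 of the 21.

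In Tfh2_4e4 replicate 3, Nrn1 was highest at 90.1 CPM, with 17.3 to 31.6 CPM in the other 5 Tfh2_4e4 libraries. Tnfrsf4 was highest at 304 CPM, with 183 to 226 CPM in the other 5 Tfh2_4e4 libraries. Tbx21 was highest at 4.22 CPM, with 0 to 0.967 CPM in the other 5 Tfh2_4e4 libraries. S100a6 was highest at 76.0 CPM, with 19.5 to 27.3 CPM in the other 5 Tfh2_4e4 libraries. Tnfsf8 was highest at 18.2 CPM, with 0 to 0.806 CPM in the other 5 Tfh2_4e4 libraries. Pold1 was highest at 45.3 CPM, with 27.2 to 30.8 CPM in the other 5 Tfh2_4e4 libraries. Armc9 was lowest at 0.821 CPM, with 3.57 to 4.51 CPM in the other 5 Tfh2_4e4 libraries. The results of Nrn1, Tnfsf8, Tbx21, S100a6 and Tnfrsf4 without this library are given with the comparison or with the alternatives.

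In Tfh5_4e4 libraries, Cmklr1 was highest in replicate 3 at 30.5 CPM, with 14.3 to 17.4 CPM in the other 5. Dnm3 was lowest in replicate 2 at 17.7 CPM, with 24.8 to 28.7 CPM in the other 5. Podnl1 was lowest in replicate 2 at 3.18 CPM, with 5.65 to 7.08 CPM in the other 5. Vhl was lowest in replicate 5 at 23.6 CPM, with 30.4 to 33.2 CPM in the other 5. Rrm1 was lowest in replicate 4 at 50.0 CPM, with 62.8 to 67.6 CPM in the other 5. Pou2af1 was highest in replicate 1 at 110.0 CPM, with 73.2 to 86.9 CPM in the other 5.

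In the other Tfh2_4e4 libraries, Lhx6 was lowest in replicate 4 at 1.58 CPM, with 6.61 to 8.17 CPM in the other 5. Adm was highest in replicate 5 at 24.2 CPM, with 9.62 to 14.4 CPM in the other 5. Dpf1 was highest in replicate 5 at 42.1 CPM, with 21.1 to 28.9 CPM in the other 5. Lair1 was highest in replicate 6 at 5.27 CPM, with 1.04 to 2.20 CPM in the other 5. Slc16a3 was lowest in replicate 4 at 219 CPM, with 274 to 301 CPM in the other 5. Vhl was lowest in replicate 1 at 36.0 CPM, with 40.9 to 43.2 CPM in the other 5. Nedd9 was highest in replicate 4 at 20.9 CPM, with 13.9 to 16.3 CPM in the other 5. Hk1 was lowest in replicate 4 at 157 CPM, with 193 to 212 CPM in the other 5.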

How the results depend on the processing

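Tfh5_4e4 and Tfh2_4e4 libraries of equal replicate number had deviations from their group means that correlated by -0.067 to 0.246 across genes. The correlation was over 0.1 in 2 of 6 pairs, and 2 numbers correlated best with their own. These values do not settle whether equal numbers mark pairs. The labels do not say that they do, and samples were not taken as paired. With the replicate number as a block 582 genes were called (269 higher and 313 lower), beside 353 without it. With numbers 1 to 3 and 4 to 6 as a factor 519 were called (226 higher and 293 lower). The cause of either rise was not tested. In the fit with the block, calls lower included 11 of 27 hypoxia-induced, 10 of 23 glycolysis, 9 of 27 replication and 7 of 24 mitosis genes. They also included 3 of 16 TH17, 3 of 17 unfolded protein response and 2 of 21 ATF4 response genes, beside 313 of all 11357 genes. Calls higher included 8 of 15 SMAD feedback and target genes (0 lower) and 2 of 10 co-inhibitory receptor genes. They also included 1 of 16 TH17 and 1 of 24 cholesterol synthesis genes, beside 269 of all 11357. In the 12 libraries alone 2 cytokine receptor genes and 0 TH2 genes were called lower and 1 regulatory T cell gene higher. Over all genes that fit called 154 lower and 140 higher. Fits without 1 library called 239 to 405 genes for Tfh5_4e4 against Tfh2_4e4 and 4619 to 4825 for Tfh2_6e4 against Tfh2_1e4. The other alternatives (DESeq2 size factors in edgeR, no filter, the 12 libraries alone, replicate numbers 1 to 3 and 4 to 6 as a factor, without the 2 identifiers of highest share, limma-voom, DESeq2) called 294 to 519 genes for the first and, where run, 4877 to 5041 for the second. Values that changed sign, none of them past the threshold, were log2 fold changes of Il17a (-0.29 to 0.13 over the fits without 1 library, the highest without Tfh2_4e4 replicate 4), Il21 (-0.12 to 0.058, the highest without the same library), Il17f (-0.088 to 0.023, the highest without replicate 5), Tbx21 (-1.48 to 0.83) and S100a6 (-0.30 to 0.31), the last pair highest without replicate 3, and S100a6 (0.0046) in limma-voom. Of 105 named genes that were called, 38 lost their call under at least 1 of 20 alternatives and 24 without Tfh2_4e4 replicate 3. Without 1 of the other libraries, 10 (Tfh2_4e4 replicate 6) to 22 (Tfh5_4e4 replicate 2 or 6) lost it. Pdcd1 passed without replicate 3, without the filter, with the block, with the number ranges as a factor, and in limma-voom and DESeq2. With 6181166 to 9934245 counts per library, a gene at 1 CPM has about 6 to 10 counts, so differences in Id1, Thbs1, Tbx21 and Tnfsf8 rest on few counts.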

Other observations

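Further genes outside the lists differed, chosen after their values were seen. Marcks, which encodes an actin-binding substrate of protein kinase C, averaged 30.0 ± 3.18 CPM in Tfh5_4e4 and 16.2 ± 1.95 CPM in Tfh2_4e4 (SD, n = 6 each), a log2 fold change of 0.88 (edgeR adjusted p = 0.000435). Ctss, the cathepsin S gene, averaged 118 ± 9.73 CPM in Tfh5_4e4 and 72.5 ± 15 CPM in Tfh2_4e4 (0.71, 4.53e-05). Its Tfh5_4e4 mean (118.3 CPM) was above that of each of the 4 Tfh2 groups, though close to that of Tfh2_1e4 (117.5 CPM). Ly6a, which encodes the surface protein Sca-1, averaged 567 ± 65.5 CPM in Tfh5_4e4 and 794 ± 87.4 CPM in Tfh2_4e4 (-0.48, 0.000677). The groups did not overlap in any of these 3, and each was called in all 12 fits without 1 library.

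Genes higher both in Tfh5_4e4 than in Tfh2_4e4 and in Tfh2_6e4 than in Tfh2_1e4 were few. Prkcb, a protein kinase C gene (0.33, 0.0148), kept its call in all 12 fits without 1 library. Armc9 (1.14, 0.0432), Irf2bpl (0.28, 0.0432) and Pyurf (0.61, 0.0483) did not keep it without Tfh2_4e4 replicate 3 (edgeR adjusted p = 0.133, 0.133 and 0.127) and in 9, 6 and 7 other fits without 1 library.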
